A study of Mus musculus with 117 samples.

Results

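The expression of 6 genes for secreted or cell-surface proteins, of 26301 genes in the RNA table, was followed through 10 groups of mouse cells with and without Ubc9, the E2 enzyme that attaches SUMO to its targets. Npy1r and Htr7 encode G protein-coupled receptors, for neuropeptide Y and for serotonin. Gabra3 encodes a subunit of the GABA-A receptor, a chloride channel opened by GABA. Kcnj8 encodes Kir6.1, the pore of a potassium channel gated by ATP. Nxph1 encodes neurexophilin 1, a secreted ligand of alpha-neurexins, and Ptchd1 a membrane protein with a patched domain, so these last genes are neither a classical receptor nor a channel. The genes were chosen by their symbols among the largest falls after depletion of Ubc9, which means that their depletion values below are a description with no test. All 6 had reads in the table, and the 6 Entrez identifiers are 18166 (Npy1r), 15566 (Htr7), 14396 (Gabra3), 16523 (Kcnj8), 18231 (Nxph1) and 211612 (Ptchd1).

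Npy1r couples to inhibitory G proteins and lowers cAMP, whereas Htr7 couples to stimulatory G proteins and raises it. GABA-A receptors are pentamers assembled from several subunit families, and the alpha subunit shapes their response to GABA and to benzodiazepines. Kir6.1 works only with a sulfonylurea receptor, in smooth muscle and pericytes most often SUR2, the product of Abcc9. Neurexophilins bind the outer part of alpha-neurexins, which also serve as partners of neuroligins and LRRTM proteins at synapses. Npy1r, Htr7, Gabra3 and Nxph1 are best known from neurons, and Kcnj8 from blood vessels.

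RNA was measured in embryonic fibroblasts (MEF) of stage E13.5 at passage 1, in MEF in which Oct4, Klf4, Sox2 and Myc (OKSM), the factors that reprogram somatic cells, had been expressed for 4 days (D4) or 7 days (D7), in induced pluripotent cells (iPS) derived from MEF, and in ES cells at passages 15 to 20. Ubc9 was depleted with a hairpin (shUbc9) and compared with a control hairpin (shCtrl) in MEF, D4, D7 and iPS, and with small interfering RNAs (siUbc9 and siCtrl) in ES cells. Each group had 3 libraries, except for MEF shUbc9 and iPS shCtrl with 2 each, labelled replicates 1 and 3. The labels give neither the promoter that drives OKSM nor the origin of the replicates, and p-values therefore speak only of the scatter among libraries, which may be technical. The libraries held 11365908 to 58779915 counts in genes. Levels are given as counts-per-million values (CPM), with libraries scaled by TMM over all 28, and they are compared within a gene and not between genes, since transcript lengths were not used.

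Of the iPS libraries, shUbc9 replicate 2 stood apart: it held the fewest counts of all 28 libraries and the highest summed level of 14 fibroblast markers among the iPS libraries (3670 CPM, against 1220 to 2230 CPM in the other 4).

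The cell types were checked against marker lists. Beside the counts of called markers below, edgeR called 53.2% of all genes tested with depletion at D4, 53.6% at D7 and 6.04% in MEF. The 14 fibroblast markers summed to 27500 to 32700 CPM in MEF shCtrl and to 625 to 919 CPM in ES siCtrl, and the 12 pluripotency markers to 2.55 to 2.99 CPM in MEF shCtrl and to 3770 to 4030 CPM in ES siCtrl. With depletion the fibroblast sum was lower at D4 (22100 to 24000 CPM against 31500 to 42400) and at D7 (19700 to 24000 CPM against 42700 to 54300), with 12 of 14 markers called lower by edgeR at each time. At D7 the sums of the 10 epithelial markers (815 to 895 CPM against 193 to 287) and of the 12 pluripotency markers (90.3 to 119 CPM against 15.8 to 36.8) were higher, with 10 and 11 called higher. The 12 pericyte and smooth muscle markers summed to 875 to 955 CPM at D7 with depletion and to 1440 to 1680 CPM without, with 2 of 11 tested called higher and 5 lower. None of the 14 fibroblast markers or of the 12 pericyte markers was at 0 in any of these groups. The summed levels of 12 neuron markers were higher with depletion at D4 (360 to 375 CPM against 197 to 219) and at D7 (301 to 308 CPM against 144 to 164). Of 9 neuron markers tested, 5 were called higher and 2 lower at D4, and 4 and 2 at D7. The 10 neural crest and glia markers summed to 30.9 to 36.6 CPM at D7 against 16.5 to 17.4 (2 of 7 tested called higher, 1 lower). The 9 endothelial markers were higher at D4 (198 to 204 CPM against 164 to 181) and lower at D7 (135 to 153 CPM against 163 to 199). Of 7 endothelial markers tested, 1 was called higher and 1 lower at D4, and 2 and 2 at D7. The 10 macrophage markers were higher with depletion in MEF (113 to 118 CPM against 65.2 to 95.9, 6 called higher) and at D4 (86.9 to 92.4 CPM against 48.8 to 53.5, 8 called higher), and at D7 (58.8 to 72.7 CPM against 50.7 to 79.2) 0 were called by edgeR and 0 by DESeq2, with 1 at an unadjusted p under 0.05. In MEF the fibroblast sum was 28700 to 30100 CPM with depletion, within the control range, with 5 of 14 called higher. The marker shifts come from the same libraries as the values of the 6 genes, and their part in those values was not tested. In bulk RNA, fewer cells of a type and less RNA per cell cannot be told apart.

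Promoter sequences are shown because the 6 genes were all lower after depletion at D4 and D7, so that a reader can see what their start sites share. RefSeq promoter windows of build GRCm38.p6, used here for sequence alone, since the submitters' processing notes name build mm9, covered all 6 genes. The 250 bases before the start are printed for the 3 genes with the largest folds at D7, with matches of 7 short motifs in capitals. The windows lie at chr8:66697172-66697421 on the plus strand (Npy1r), chrX:72656920-72657169 on the minus strand (Gabra3, the first of 2 start sites) and chr6:8949769-8950018 on the plus strand (Nxph1).
Npy1r: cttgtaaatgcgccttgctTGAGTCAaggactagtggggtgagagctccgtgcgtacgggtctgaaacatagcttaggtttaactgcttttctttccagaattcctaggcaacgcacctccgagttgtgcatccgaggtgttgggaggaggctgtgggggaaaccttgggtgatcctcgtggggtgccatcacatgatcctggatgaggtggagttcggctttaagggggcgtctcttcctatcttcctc
Gabra3: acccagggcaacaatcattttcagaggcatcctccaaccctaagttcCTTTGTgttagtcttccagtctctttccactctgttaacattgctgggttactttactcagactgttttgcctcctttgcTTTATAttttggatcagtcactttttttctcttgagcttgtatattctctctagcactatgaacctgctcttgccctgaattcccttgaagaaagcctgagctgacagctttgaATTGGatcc
Nxph1: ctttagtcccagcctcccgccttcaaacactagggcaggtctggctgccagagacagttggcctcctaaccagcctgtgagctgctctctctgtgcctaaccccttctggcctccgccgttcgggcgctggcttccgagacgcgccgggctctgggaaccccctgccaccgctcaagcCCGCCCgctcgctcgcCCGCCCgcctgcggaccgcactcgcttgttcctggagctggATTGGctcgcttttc

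The motifs searched on both strands were the AP-1 motif TGANTCA, a SOX motif ACAAAG, the GC box GGGCGG, a TEAD motif GGAATG, the TATA box TATAAA, the CCAAT box CCAAT and the E-box CACGTG. The capitals in Npy1r mark 1 AP-1 match, which begins 231 bases before the start. Matches of this motif were found in 6.75% of all 32851 windows. In Gabra3 they mark a SOX match, a TATA match and a CCAAT match, held by 16.5%, 12.4% and 33.8% of windows. In Nxph1 they mark 2 GC boxes (32.7% of windows) and 1 CCAAT box. None of the matches overlapped another. The windows of Kcnj8, Ptchd1 and Htr7 held no match, and none of the 7 motifs was found in more than 2 of the 6 genes' windows. The CpG content differed widely between the genes: Ptchd1 and Htr7 had 41 CpG each, more than 98.9% of windows, Nxph1 had 20, Npy1r 10 and Kcnj8 6, whereas Gabra3 had 0. The median over all windows was 6. A match describes letters and not a bound site.

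At D4 and D7 all 6 genes were lower in every depleted library than in every control library, and all 6 were at least 2-fold lower. At D4, 3.95% of 17001 genes tested were at least 2-fold lower and 28% were lower in every depleted library. At D7 these shares were 6.49% and 25.8% of 17207 genes. Since these contrasts chose the genes, nothing is read from those counts. The median log2 fold change of the 6 was -2.33 at D4 and -3.51 at D7, against -0.006 and 0.006 over all genes tested. In MEF, where 0.46% of 16287 genes were at least 2-fold lower and 15.7% were lower in every depleted library, the counts were 2 and 4 of 6, and the median was -0.775 (all genes, -0.003).

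**Figure D1:**
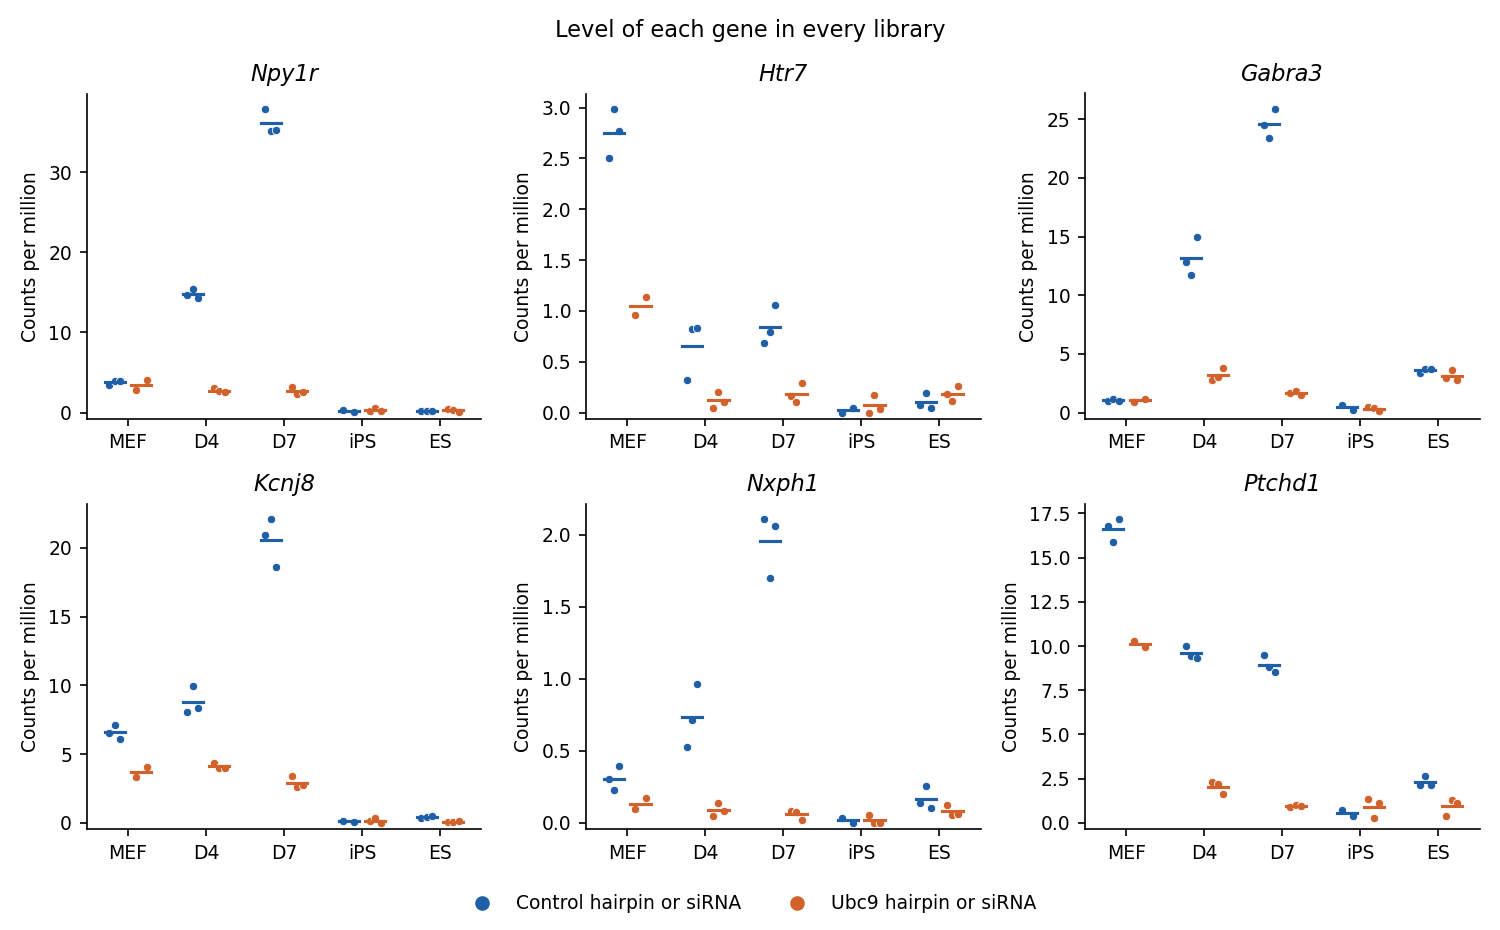
Level of each gene in CPM (y axis, linear, own range per gene) in the 28 libraries, by cell state, with controls in blue and Ubc9 depletion in orange; a point is 1 library and a line the group mean. At D4 and D7 every control point lies above every depleted point of the same gene, and at D7 Npy1r measured 35.1 to 37.9 CPM with the control hairpin and 2.35 to 3.19 CPM with the Ubc9 hairpin.

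Npy1r, the receptor for neuropeptide Y, was highest at D7 of the control arm. Its level in the 3 libraries of each group was 3.46, 3.98 and 3.90 CPM in MEF shCtrl, 14.6, 15.4 and 14.3 at D4 shCtrl and 37.9, 35.1 and 35.3 at D7 shCtrl. With the Ubc9 hairpin it was 2.75 and 4.04 CPM in MEF, 3.04, 2.65 and 2.5 at D4, and 3.19, 2.35 and 2.61 at D7. The MEF groups overlapped, and at D4 and D7 the groups were far apart. The control arm climbed at each step, whereas the depleted arm had a level near that of MEF at every time. The fitted log2 difference was -0.16 ± 0.16 (SE) in MEF, -2.45 ± 0.10 at D4 and -3.77 ± 0.13 at D7, which is 13.7-fold lower and leaves 7.53% of the control mean. In the pluripotent groups it was low with or without Ubc9, 0.284 and 0.0695 CPM in iPS shCtrl, 0.194, 0.531 and 0.174 in iPS shUbc9, 0.173, 0.172 and 0.227 in ES siCtrl, and 0.483, 0.345 and 0.107 in ES siUbc9. These 4 groups overlapped.

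Htr7, the stimulatory serotonin receptor, had the other course, with its highest level in MEF. It measured 2.5, 2.99 and 2.77 CPM in MEF shCtrl and 0.958 and 1.14 CPM in MEF shUbc9, so that the groups were apart before any reprogramming factor was expressed. At D4 it measured 0.322, 0.821 and 0.833 CPM against 0.0465, 0.201 and 0.108, and at D7 0.688, 0.791 and 1.06 against 0.161, 0.1 and 0.295. Depleted libraries were below controls in all 3 states, and the lowest control library at D4 lay close to the highest depleted one. The log2 difference was -1.40 ± 0.16 (SE) in MEF, -2.44 ± 0.47 at D4 and -2.10 ± 0.39 at D7, from totals of 86, 18 and 24 reads in the depleted groups. Without depleted replicate 2 the D4 value was -3.17. In MEF, Htr7 ranked 21st from the lowest of 16287 genes, the nearest to the bottom of the 6. In iPS it had 2 reads in control and 4 in depleted libraries, and in ES cells 15 and 21, too few to fit.

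Gabra3, the alpha-3 subunit of the GABA-A receptor, had overlapping levels in MEF and its largest difference at D7. Its level in MEF was 0.961, 1.19 and 1.00 CPM with the control hairpin and 0.934 and 1.16 CPM with the Ubc9 hairpin, with a log2 difference of -0.02 ± 0.20 (SE). At D4 it measured 12.8, 11.7 and 15.0 CPM in shCtrl and 2.74, 3.07 and 3.77 in shUbc9, and at D7 24.5, 23.4 and 25.9 CPM against 1.66, 1.80 and 1.49. Both arms were above MEF at D4, and at D7 the control arm was higher still while the depleted arm was lower than at D4. The log2 difference was -2.07 ± 0.15 at D4 and -3.93 ± 0.13 at D7, 15.3-fold lower. Gabra3 was also the member with the most RNA in ES cells relative to its own MEF level. It measured 3.40, 3.72 and 3.71 CPM in siCtrl and 2.96, 3.59 and 2.81 in siUbc9, groups that overlapped (log2 difference -0.15 ± 0.13). In iPS it was 0.604 and 0.255 CPM in shCtrl and 0.498, 0.354 and 0.158 in shUbc9, overlapping again.

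Kcnj8, the pore of the Kir6.1 channel, was lower with depletion in 4 of the 5 states. It measured 6.53, 7.12 and 6.10 CPM in MEF shCtrl against 3.34 and 4.08 in shUbc9, 8.08, 9.96 and 8.38 at D4 against 4.34, 3.98 and 4.01, and 20.9, 22.1 and 18.6 at D7 against 3.43, 2.58 and 2.78. Groups of these 3 states did not overlap, and the gap widened from MEF to D7. The log2 difference was -0.83 ± 0.12 (SE) in MEF, -1.13 ± 0.10 at D4 and -2.85 ± 0.13 at D7, and at D4 it was the smallest of the 6. In ES cells it measured 0.384, 0.452 and 0.515 CPM in siCtrl and 0.0603, 0.0907 and 0.129 in siUbc9, 4.22-fold lower, from 66 and 12 reads. In iPS, 6 reads stood against 9, and no value was fitted.

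Nxph1, the neurexin ligand, had the largest fold of the 6 at D7 and the fewest reads in the depleted libraries there. It measured 0.302, 0.226 and 0.392 CPM in MEF shCtrl against 0.0983 and 0.169 in shUbc9, 0.523, 0.716 and 0.963 at D4 against 0.0465, 0.134 and 0.0808, and 2.11, 1.70 and 2.06 at D7 against 0.0805, 0.0751 and 0.0210. Control libraries were above depleted ones in each of these states. The D7 value was -5.06 ± 0.34 on the log2 scale, the lowest of all 17207 genes tested, and it rested on 189 reads against 7. At D4 it was -3.00 ± 0.39 (84 reads against 13) and in MEF -1.16 ± 0.47 (38 against 11). Without depleted replicate 2 the D4 value was -3.53. Without depleted replicate 3 the D7 value was -4.63. The MEF value was -1.58 without depleted replicate 3 and -0.85 without depleted replicate 1, which is under 2-fold and would leave Htr7 as the only gene at least 2-fold lower in MEF. In iPS Nxph1 had 1 read in control and 2 in depleted libraries, and in ES cells 24 against 8, with overlapping groups.

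Ptchd1, the patched-domain protein, was highest in MEF, like Htr7. It measured 16.8, 15.9 and 17.2 CPM in MEF shCtrl against 10.3 and 9.93 in shUbc9, 10.0, 9.45 and 9.32 at D4 against 2.32, 2.21 and 1.62, and 9.47, 8.79 and 8.55 at D7 against 0.912, 1.03 and 0.947. The control arm was level between D4 and D7, and the depleted arm was lower at each later time. The log2 difference was -0.72 ± 0.09 (SE) in MEF, -2.23 ± 0.13 at D4 and -3.25 ± 0.13 at D7, 9.50-fold lower. In ES cells it measured 2.13, 2.65 and 2.14 CPM in siCtrl and 0.362, 1.29 and 1.14 in siUbc9, 2.12-fold lower with no overlap. In iPS it was 0.746 and 0.371 CPM in shCtrl and 1.33, 0.266 and 1.14 in shUbc9, with overlap.

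**Figure D2:**
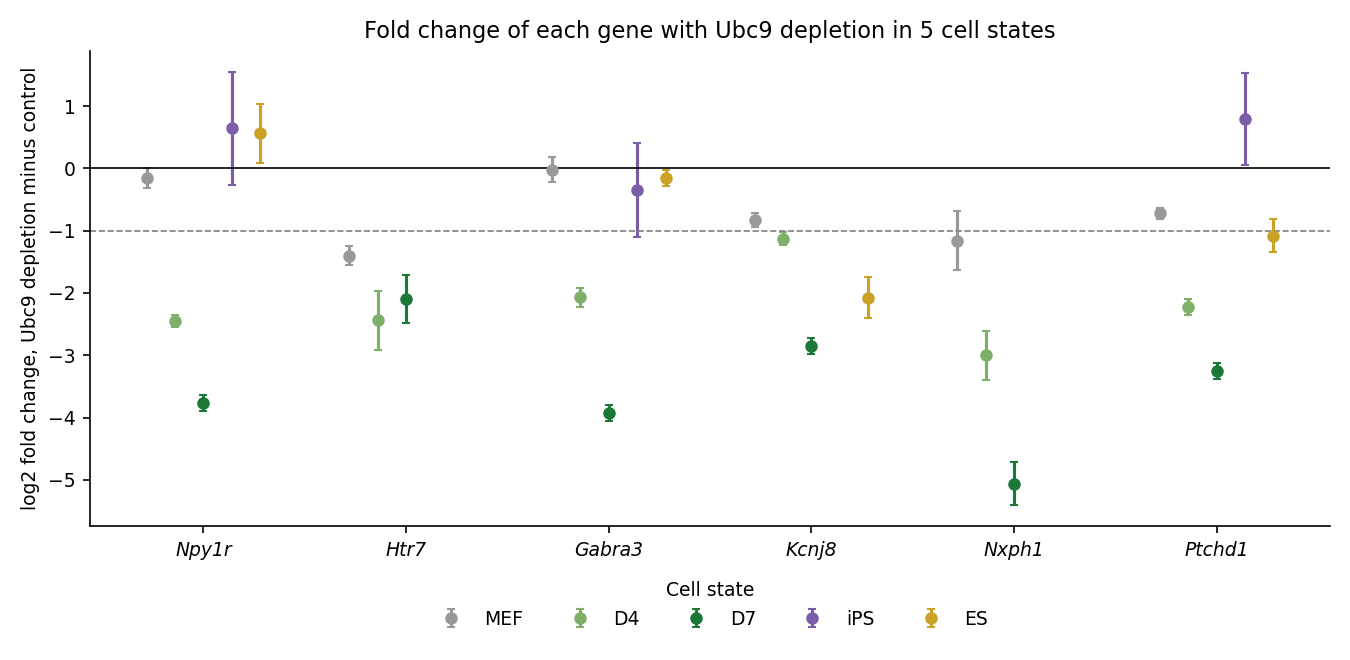
Fitted log2 fold change of depletion minus control (y axis) of the 6 genes (x axis) in 5 cell states; points are edgeR estimates, bars 1 standard error, the dashed line a 2-fold fall, and a missing point a gene with too few reads to fit. At D7 the values run from -5.06 for Nxph1 to -2.10 for Htr7, while in iPS and ES cells some lie above 0.

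In iPS 3 of the 6 genes had enough reads to fit, 0 were at least 2-fold lower (2.07% of 17294 genes were) and 0 were lower in every depleted library (6.36% of genes were). The log2 values were 0.64 ± 0.90 (SE) for Npy1r, -0.35 ± 0.75 for Gabra3 and 0.79 ± 0.74 for Ptchd1, and they moved with single libraries. Without iPS shCtrl replicate 1 they were 1.86, 0.35 and 1.34, and without iPS shCtrl replicate 3 they were -0.10, -0.87 and 0.35. Without the iPS shUbc9 library that stood apart, Gabra3 was at -0.42 and Ptchd1 at 1.14 on the log2 scale, against -0.35 and 0.79 with it, and Npy1r had too few reads to fit. In ES cells 4 genes could be fitted, and 2 of them, Kcnj8 and Ptchd1, were at least 2-fold lower, beside 2.21% of 17859 genes. These same 2 were lower in every depleted library, beside 29.0% of genes. Npy1r in ES cells was at 0.56 ± 0.47 (SE) on the log2 scale, with overlapping groups. A difference of these values between cell states was not tested.

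**Figure D3:**
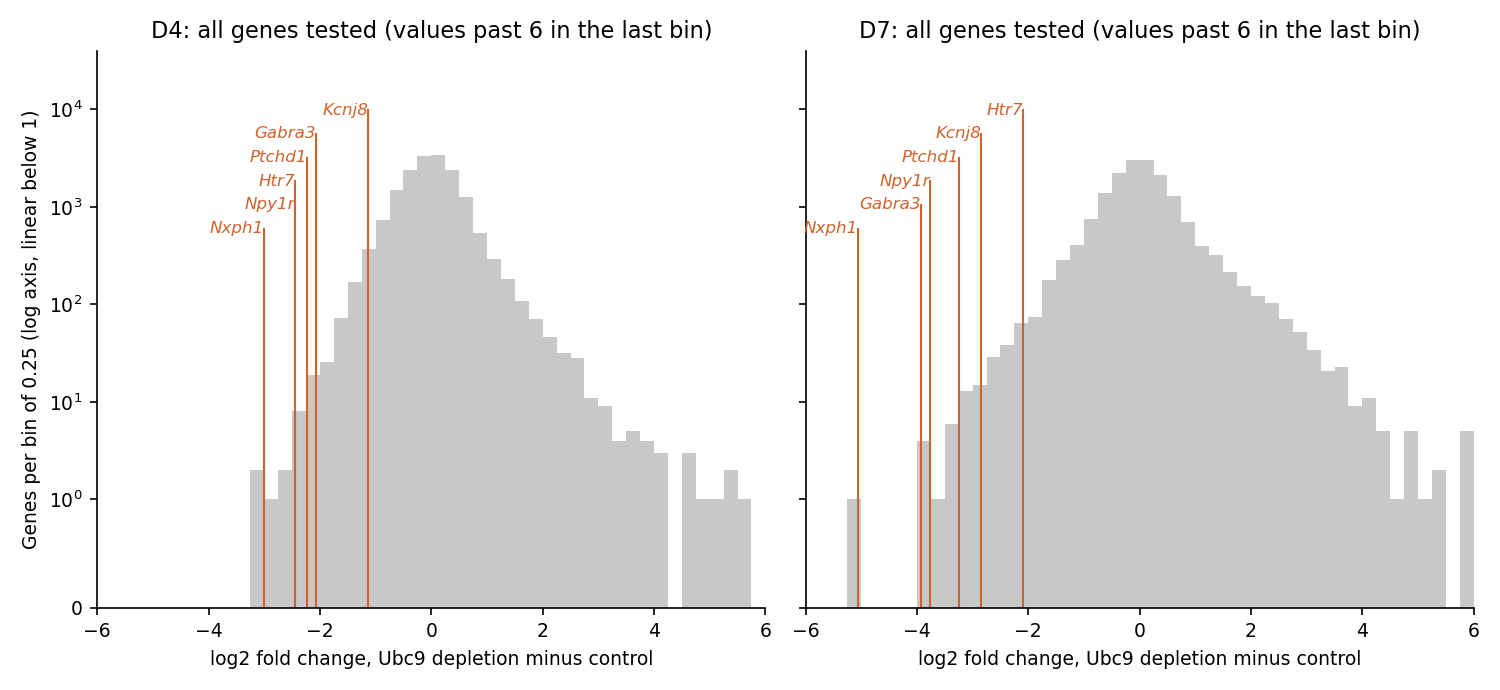
Number of genes per bin of 0.25 (y axis, log scale, linear below 1) by log2 fold change of depletion minus control (x axis) at D4 and D7, with the 6 genes as orange lines whose heights carry no value. At D4, 4 genes lie between -2.45 and -2.07 and Nxph1 at -3.00, with Kcnj8 at -1.13 the nearest to 0, and at D7 all 6 lie at -2.10 or lower.

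By log2 fold change at D7, Nxph1 ranked 1st from the lowest, Gabra3 2nd, Npy1r 4th, Ptchd1 14th, Kcnj8 31st and Htr7 138th of 17207. At D4, Nxph1 ranked 2nd, Npy1r 7th, Htr7 8th, Ptchd1 15th, Gabra3 25th and Kcnj8 435th of 17001. Htr7 was thus nearer the bottom at D4 than at D7, and Kcnj8 the reverse.

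The course of each gene within one arm was then followed between states. The D4 and D7 libraries that enter it are those whose values chose the genes, and a large fall against D7 shCtrl favours genes that are high there. The values of each course through D4 and D7 are therefore a description, with no test. In the control arm from MEF to D4, 4 genes were higher and 2 lower. Gabra3 was 12.8-fold higher (log2 3.68 ± 0.15, SE), Npy1r 4.02-fold, Nxph1 2.54-fold and Kcnj8 1.39-fold (log2 0.47 ± 0.10). Htr7 was 3.82-fold lower (log2 -1.93 ± 0.23) and Ptchd1 1.68-fold lower (log2 -0.75 ± 0.08). Libraries of D4 and MEF did not overlap in any of the 6.

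From D4 to D7 in the control arm, Npy1r was higher by 1.32 ± 0.07 (SE) on the log2 scale, Kcnj8 by 1.24 ± 0.09, Nxph1 by 1.40 ± 0.23 and Gabra3 by 0.93 ± 0.12, without overlap. Ptchd1 (-0.08 ± 0.09) and Htr7 (0.24 ± 0.34) overlapped between these times. From D7 to iPS all 6 were lower in every library. Ptchd1 differed by -4.14 ± 0.34 and Gabra3 by -6.01 ± 0.36, from 37 and 28 reads in the 2 iPS libraries. Kcnj8 (-7.94 ± 0.36) and Npy1r (-7.90 ± 0.40) rested on 6 and 11 iPS reads. Leaving out 1 iPS library moved Kcnj8 to -8.75 or -7.27, Npy1r to -9.01 or -7.11 and Gabra3 to -6.64 without replicate 1. Nxph1 (189 reads against 1) and Htr7 (77 against 2) are given by their reads alone. Of the 10 groups, D7 shCtrl had the highest level of Npy1r, Gabra3, Nxph1 and Kcnj8, a description of values that the choice used, and for Ptchd1 and Htr7 the highest group was MEF shCtrl.

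The values of the depleted arm are set beside these, and the arms were not tested against each other. From MEF to D4 the directions of Gabra3, Ptchd1 and Htr7 were those of the control arm. Gabra3 was 3.03-fold higher (log2 1.60 ± 0.21, SE), Ptchd1 4.89-fold lower (-2.29 ± 0.14) and Htr7 8.07-fold lower (-3.01 ± 0.39). Npy1r (-0.31 ± 0.18) and Kcnj8 (0.14 ± 0.13) overlapped between MEF and D4. From D4 to D7, Gabra3 differed by -0.90 ± 0.17 on the log2 scale, Ptchd1 by -1.05 ± 0.18 and Kcnj8 by -0.44 ± 0.14, and Npy1r (0.04 ± 0.15) overlapped. From D7 to iPS, Npy1r (-3.44 ± 0.47), Kcnj8 (-4.85 ± 0.76) and Gabra3 (-2.35 ± 0.45) were lower, as in the control arm, and Ptchd1 overlapped (0.04 ± 0.45). Without iPS shUbc9 replicate 2 these log2 values were -3.91, -5.76, -2.45 and 0.33. Without iPS shUbc9 replicate 3 Kcnj8 stood at -3.92, and without iPS shUbc9 replicate 1 Gabra3 stood at -2.97.

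**Figure D4:**
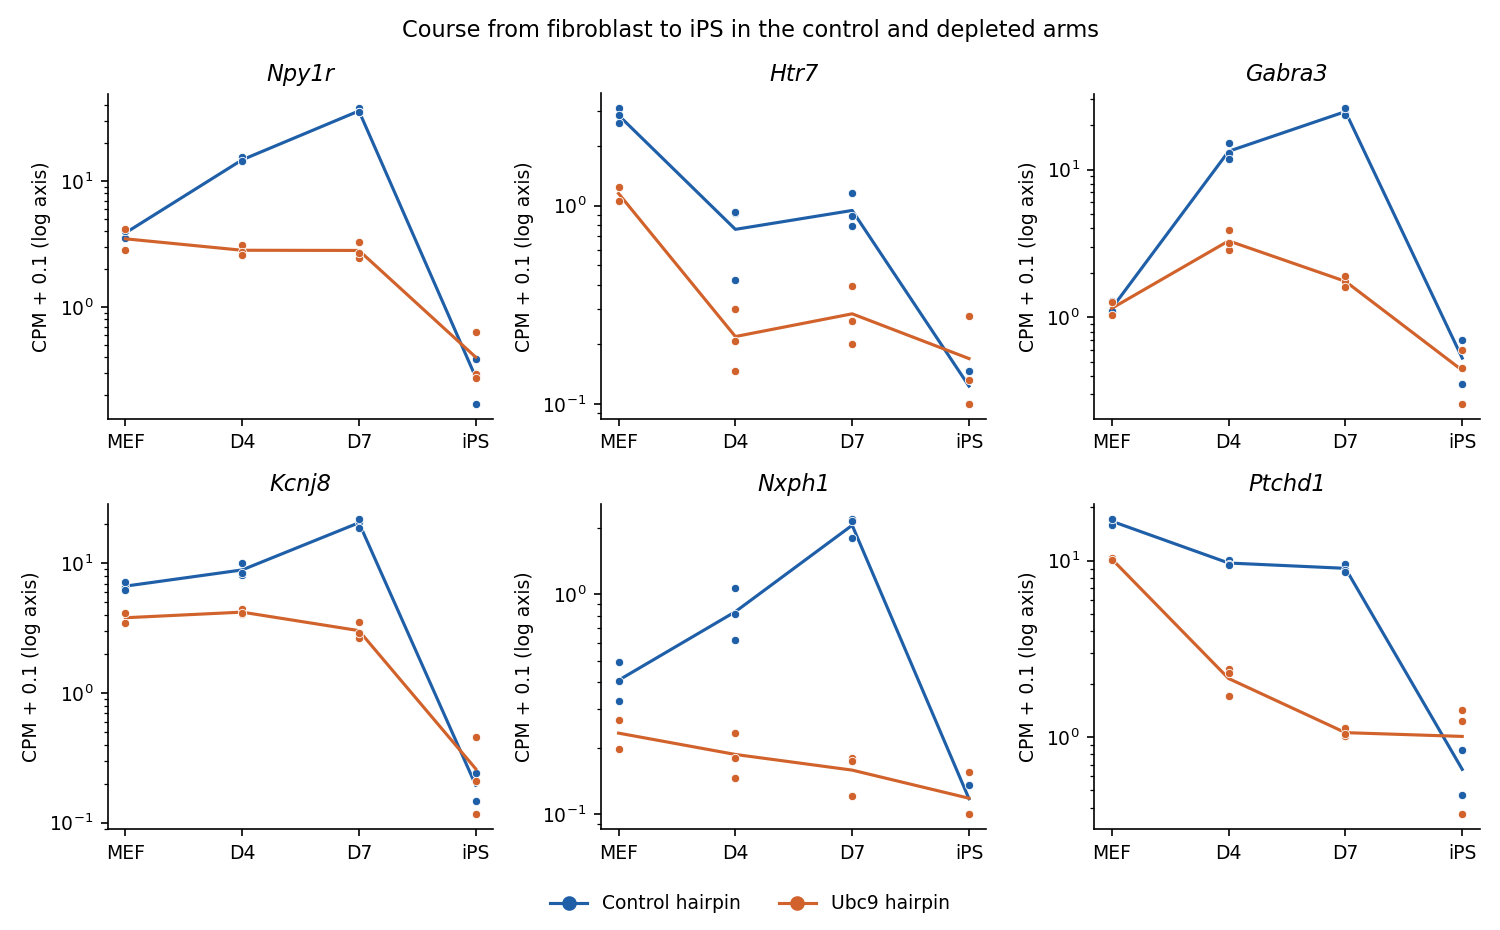
Course of the 6 genes from MEF through D4 and D7 to iPS (x axis) as CPM + 0.1 on a log axis (y axis), control arm in blue and depleted arm in orange; points are libraries and lines join group means. Npy1r, Gabra3, Kcnj8 and Nxph1 peak at D7 in the control arm, where the depleted arm of Npy1r lies at 2.72 CPM, close to its MEF mean of 3.39.

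The control states outside D4 and D7 are likewise a description, with no test. Their libraries are the control side of depletion contrasts, and a large fall there favours genes that are high in the control. Between the 2 at the ends, ES siCtrl and MEF shCtrl, 4 of the 6 were lower in every ES library and 1 higher. Over all 18149 genes, edgeR called 90.5% between these groups. The folds of these lower values were 26.6 for Htr7, 19.8 for Npy1r, 14.7 for Kcnj8 and 7.29 for Ptchd1. Without ES siCtrl replicate 2 the log2 value of Htr7 was -5.47, against -4.73. Gabra3 was 3.38-fold higher in ES cells. Nxph1 was at -0.89 ± 0.40 (SE) on the log2 scale, with overlapping libraries. The libraries of iPS shCtrl were below those of ES siCtrl for Gabra3 (8.89-fold), Kcnj8 (5.16-fold) and Ptchd1 (4.31-fold). Over all 18108 genes, edgeR called 53.3% between iPS shCtrl and ES siCtrl. Leaving out 1 iPS library moved Gabra3 to -3.81 or -2.56 on the log2 scale (main value -3.15) and Kcnj8 to -3.21 or -1.63 (-2.37). Npy1r overlapped between iPS shCtrl and ES siCtrl (log2 -0.26 ± 0.61). ES cells received small interfering RNA and iPS a hairpin, so cell state and delivery cannot be told apart here.

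Over the 10 groups, some pairs of the 6 genes had like patterns and others did not. The Pearson correlation of mean log2 CPM, given as a description over 10 groups that share depth and libraries, was highest for Npy1r with Kcnj8 (0.96) and for Ptchd1 with Htr7 (0.92). It was lowest for Gabra3 with Htr7 (0.36). Among 17338 genes that reached 1 CPM in a group, the 3 with the highest correlation with each member are named. They were Cldn15, Slitrk1 and Aqp4 for Npy1r (0.989, 0.988 and 0.987) and Sfrp4, Desi1 and mt-Rnr2 for Gabra3 (0.977, 0.975 and 0.957). For Nxph1 they were Nlgn3, Rnf112 and Fmo4 (0.94, 0.923 and 0.916). They were Sim1, Nbas and Nhsl2 for Kcnj8 (0.987, 0.987 and 0.985), Mrtfa, Cc2d1a and Ctnnd1 for Ptchd1 (0.97, 0.97 and 0.965), and Fgfrl1, Ppib and Zfyve19 for Htr7 (0.986, 0.972 and 0.966). A high correlation does not give the size of a change. Mean levels at D7 shCtrl and shUbc9 were 50.1 and 38.5 CPM for Desi1, against 24.6 and 1.65 for Gabra3. For Aqp4 they were 5.28 and 0.741 CPM, against 36.1 and 2.72 for Npy1r.

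The genes next to the 6 on the chromosomes were measured in the same fits. By the order of genes in RefSeq, 12 neighbours and 1 microRNA gene within Gabra3 were found, and 7 of the 13 had enough reads at D4 and D7. At D4, 1 of the 7 fell and 4 rose, and at D7 2 fell and 3 rose, 71.4% called at each time beside 53.2% and 53.6% of all genes. Of these, only Abcc9 changed by 2-fold or more in these states. It is the neighbour of Kcnj8 and the gene of SUR2, its channel partner. Abcc9 fell from 13.0 ± 1.29 to 6.14 ± 1.24 CPM (SD, n = 3 and 3) at D4, 2.15-fold (edgeR adjusted p = 0.000177), and from 21.9 ± 1.01 to 3.92 ± 0.747 CPM at D7, 5.75-fold (adjusted p = 3.09e-06). In MEF it was 7.36 against 6.46 CPM and was not called (adjusted p = 0.355). In ES cells it was higher with depletion, 0.136 against 0.277 CPM (adjusted p = 0.0184), from 20 and 34 reads, whereas Kcnj8 was lower there. Ldhb, on the other side of Kcnj8, rose at D4 (36.8 to 51.8 CPM, adjusted p = 0.00188) and was not called at D7 (26.9 against 24.4 CPM, adjusted p = 0.185).

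Of the neighbours of the other 5 genes, 1 fell and 3 rose at D7. Kif20b and Rpp30, on either side of Htr7, rose at D7 from 27.6 to 54.5 CPM (edgeR adjusted p = 6.35e-05) and from 10.7 to 16.5 CPM (adjusted p = 0.00278). Ica1, beside Nxph1, rose from 8.27 to 14.6 CPM (adjusted p = 0.000666). Prdx4, beside Ptchd1, fell from 81 to 69 CPM, with adjusted p = 0.0496, and Naf1, beside Npy1r, was not called (7.26 against 7.02 CPM, adjusted p = 0.873). Npy5r, a receptor for the same peptide on the other side of Npy1r, had 11 reads in each D7 group. Gabrq, the subunit gene beside Gabra3, had 22 reads in control and 25 in depleted libraries at D7; neither was tested. In MEF edgeR called 0 of 7 neighbours, with 3 at an unadjusted p under 0.05 and 0 called by DESeq2, and it called 1 when MEF shCtrl replicate 2 was left out.

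The 7 lists of related genes, 127 genes without the 6, were compared with all genes tested. At D4, 24 of 84 tested rose and 38 fell (73.8%, against 53.2% of all genes), and at D7 23 of 87 rose and 38 fell (70.1%, against 53.6%). The median log2 fold change was -0.21 at D4 and -0.22 at D7, against -0.01 and 0.01 over all genes. In MEF 4 of 80 rose and 4 fell (10.0%, against 6.04%), and in ES cells 27 of 89 rose and 24 fell (57.3%, against 39.1%). With all 28 libraries in one fit the counts were 35 at D4, 27 in ES cells and 0 in MEF. The lists were chosen with results of these data known. A wider class of 279 receptor and channel genes, taken by symbol, changed in both directions: 49 of 179 tested rose and 45 fell at D4, and 49 of 188 rose and 52 fell at D7 (52.5% and 53.7% called). In this class 27 of 188 genes were at least 2-fold lower at D7 and 34 at least 2-fold higher. Of all 17207 genes, 1116 (6.49%) and 1553 (9.03%) were, a smaller share in each direction. Some of these class genes had under 1 CPM in both groups, where folds are less precise. The difference in shares was not tested.

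Within the neuropeptide Y list, 2 of 4 genes tested fell and 1 rose at D4, and 3 of 5 fell at D7. Npy2r, another receptor of this peptide, fell from 3.38 to 1.45 CPM at D4 (2.31-fold, edgeR adjusted p = 0.00228) and from 4.25 to 1.03 CPM at D7 (4.22-fold, adjusted p = 1.57e-05). Npy6r fell from 3.29 to 0.662 CPM at D7 (5.02-fold, adjusted p = 2.97e-05). In the serotonin list, 4 of 9 rose and 1 fell at D4, and 4 of 10 rose and 2 fell at D7. Ddc, the decarboxylase that makes serotonin and dopamine, rose from 13.0 to 44.9 CPM at D7 (3.37-fold, adjusted p = 2.23e-06). Htr1b, an inhibitory serotonin receptor, fell from 2.96 to 1.76 CPM (adjusted p = 0.0122).

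The cAMP list, through which both receptors signal, had 13 of 23 lower and 5 higher at D4 and 14 of 22 lower and 4 higher at D7. Its changes were small, with a median log2 of -0.25 and -0.34. Pde3a, a phosphodiesterase that breaks down cAMP, fell from 11.0 to 5.49 CPM at D7 (edgeR adjusted p = 0.000166). Gnai1, an inhibitory G protein subunit, rose from 19.7 to 27.5 CPM (adjusted p = 0.00523).

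The GABA list changed in both directions. At D4, 5 of 13 rose and 4 fell, and at D7 6 of 14 rose and 4 fell. The alpha-2 subunit gene Gabra2 rose where Gabra3 was lower, from 0.277 to 2.58 CPM at D4 (9.34-fold, edgeR adjusted p = 6.71e-06) and from 0.763 to 12.5 CPM at D7 (15.6-fold, adjusted p = 1.05e-06). Gabrp, the pi subunit, rose from 3 to 19.5 CPM at D7 (6.36-fold, adjusted p = 1.05e-06). Gabre, the epsilon subunit, and Gabra4, the alpha-4 subunit, fell at D7 from 2.77 to 0.696 CPM (adjusted p = 0.000313) and from 2.82 to 1.04 CPM (adjusted p = 0.000939).

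Among inward rectifier channels and their sulfonylurea receptors, 4 of 9 rose and 2 fell at D4 and 3 of 10 rose and 2 fell at D7. The 2 falls at each time were Abcc9, above, and Kcnj2, the gene of Kir2.1, which fell from 18.1 to 6.38 CPM at D7 (2.91-fold, edgeR adjusted p = 7.47e-06). Kcnj12, the gene of Kir2.2, rose from 2.97 to 14.6 CPM (4.78-fold, adjusted p = 3.40e-06).

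Most genes of the neurexin list fell. At D4, 8 of 11 genes fell and 2 rose, and at D7 6 fell and 2 rose, with a median log2 of -1.08 and -1. Nlgn3, a neuroligin, fell from 2.32 to 0.958 CPM at D4 (edgeR adjusted p = 0.00217) and from 2.27 to 0.721 CPM at D7 (3.14-fold, adjusted p = 0.000698). Lrrtm3, a leucine-rich repeat partner of neurexins, fell from 5.76 to 1.25 CPM at D7 (4.71-fold, adjusted p = 5.19e-06), and it fell in MEF too, from 19.2 to 11.8 CPM (adjusted p = 0.00127). The other genes that fell at D7 were Lrrtm1, Lrrtm4, Nlgn2 and Cbln2, all partners of neurexins.

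In the list of patched-domain and Hedgehog genes, 8 of 15 fell and 3 rose at D4, and 7 fell and 4 rose at D7. Boc, a Hedgehog co-receptor, fell from 155 to 49.3 CPM at D7 (3.23-fold, edgeR adjusted p = 2.04e-06), and Gli2, a transcription factor of the pathway, from 14.6 to 5.94 CPM (adjusted p = 0.0118). Hedgehog signalling is known to induce Gli1 and Hhip. Gli1 went from 0.411 to 2.98 CPM at D7, a 7.53-fold rise with an adjusted p of 5.29e-05. Hhip went from 1.31 to 8.29 CPM, 6.47-fold higher with an adjusted p of 1.26e-05. In ES cells 5 of 17 rose and 5 fell. Smo, the signal transducer of the pathway, rose from 30.6 to 33.8 CPM (adjusted p = 0.0151) and Gas1, a Hedgehog co-receptor, from 1.84 to 2.56 CPM (adjusted p = 0.0436). Gli1 and Gli2 fell there, from 41.1 to 17.2 CPM (adjusted p = 1.23e-05) and from 40.4 to 10.3 CPM (adjusted p = 6.59e-05).

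**Figure D5:**
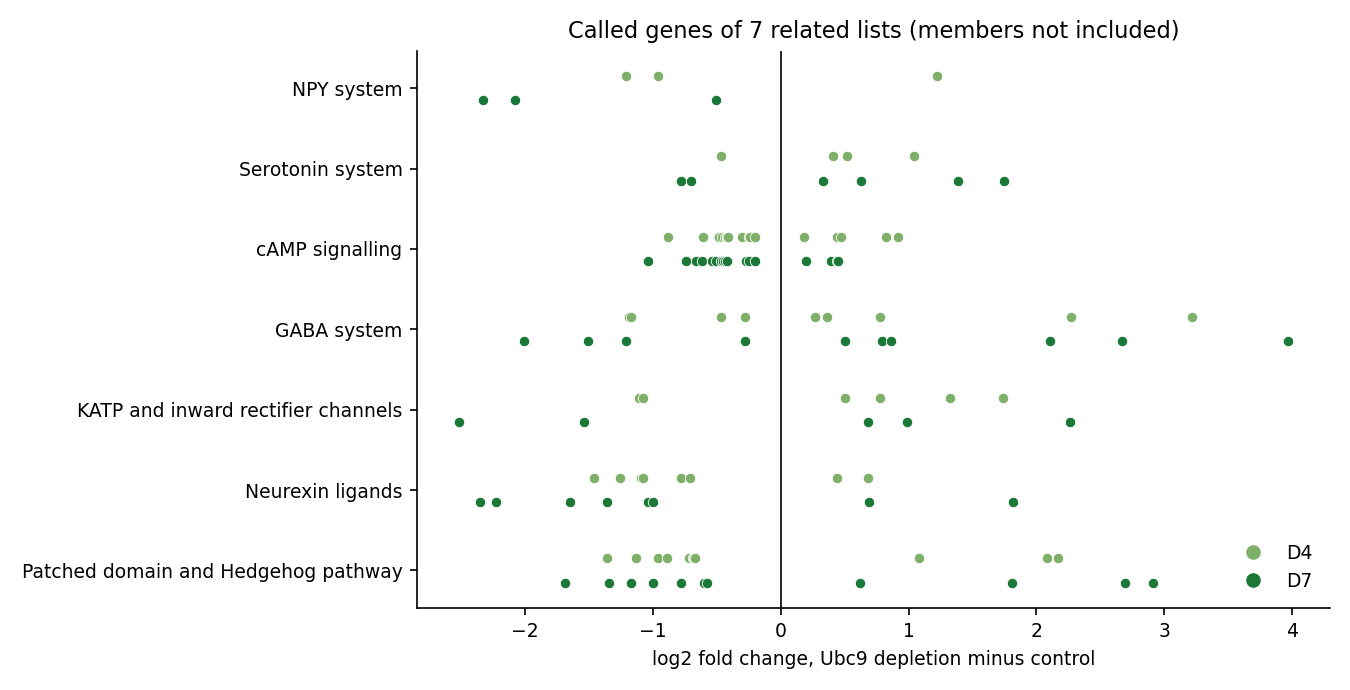
Log2 fold change of depletion minus control (x axis) of the genes called by edgeR in 7 related lists (y axis) at D4 (light green) and D7 (dark green); each point is 1 gene and the 6 genes described above are not among them. The neurexin list has 6 falls and 2 rises at D7, and the GABA list reaches from -2.01 for Gabre to 3.97 for Gabra2.

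In iPS none of the 84 list genes tested was called by edgeR, with 0 at an unadjusted p under 0.05 and 0 called by DESeq2. Of the 183 class genes 0 were called by edgeR, with 1 at an unadjusted p under 0.05 and 0 by DESeq2. Over all 17294 genes edgeR called 0 (246 at an unadjusted p under 0.05) and DESeq2 called 10.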

How the data were processed

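RNA-seq of 28 libraries in 10 groups was used. Total RNA was extracted with Trizol and RNeasy columns and sequenced after ribosomal depletion with a stranded kit, per the labels' protocols. The authors deposited whole-number counts of reads per gene and per repeat family, per the file headers. STAR 2.5.0a, featureCounts, DESeq2 and build mm9 are named in the submitters' processing notes. The annotation, the strand setting and the handling of reads with several matches are not given in these labels or headers, so reads of overlapping antisense genes cannot be told apart. The 799 repeat families, 7.22 to 24.8% of counts, were left out of library sizes and tests.

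Each comparison was fitted on its own groups with edgeR 4.0.16 in R 4.3.3 (limma 3.58.1; quasi-likelihood test, TMM, filterByExpr at a minimum count of 10, two-sided, Benjamini-Hochberg over all genes tested, called at an adjusted p under 0.05). CPM were scaled by TMM over all 28 libraries, and log2 CPM for correlations used a prior count of 2. A fold of 2 was the size threshold, and groups with 3 or fewer reads were given no fold. The scripts were tested on simulated data. DESeq2 1.42.0, library sizes alone, no filter, a replicate block, 1 fit of all 28 libraries and leaving out each library were the alternatives.

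The members and lists were chosen with earlier results of these data known. Beside the 6 genes, the text names chromosomal neighbours, the 3 genes most correlated with each member, and per list and depletion contrast up to 2 called rises and 2 called falls of the largest size with a mean of at least 1 CPM. The genes Lrrtm1, Lrrtm4, Nlgn2 and Cbln2 were named after their values were seen. Replicate numbers were not used to pair samples in the main fits. The deviations of same-numbered libraries correlated at 0.15, 0.361 and 0.122 between D4 and MEF controls. In the ES depletion contrast they correlated at 0.192, 0.148 and 0.0384. Over all comparisons the values ran from -0.452 (replicate 1, iPS depletion) to 0.39 (replicate 2, D7 against D4 controls). Between D4 and MEF controls the replicate block, run as an alternative, turned no direction of the 6 genes. Chromatin peaks, inputs and ATAC-seq were not analysed here, and the check of the targeted gene is not reported here.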

Additional observations from a re-analysis of the deposited data

Results flagged for a closer look

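The courses of 2 genes from D4 to D7 ran in opposite directions in the 2 arms, with every D7 library on one side of every D4 library. Gabra3 differed by 0.93 on the log2 scale in the control arm and by -0.90 in the depleted arm. Kcnj8 differed by 1.24 in the control arm and by -0.44 in the depleted arm. The difference between the arms was not tested, because the depletion contrasts that chose the genes hold the same libraries.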

How the results depend on the processing

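All alternatives for the wider class, the neighbours and all genes were chosen after seeing the data. With all 28 libraries in 1 fit, the called family genes numbered 0 in MEF (8 in the separate fit), 35 at D4 (62) and 27 in ES cells (51). The called class genes then numbered 0 in MEF (12), 60 at D4 (94), 10 in iPS (0) and 54 in ES cells (102), and the neighbours 2 at D4 (5), 2 at D7 (5), 2 in iPS (0) and 1 in ES cells (4). The replicate block gave 15 family genes, 23 class genes and 1 neighbour in MEF and 1 class gene in iPS. It moved no other list count by over 1.5 times. Leaving out 1 library gave 3 to 13 family genes, 2 to 16 class genes and 0 to 1 neighbours in MEF, and 1 to 5 neighbours in ES cells.

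Over all genes, the fit of 28 libraries called 37 in MEF (984), 4190 at D4 (9051), 6127 at D7 (9223), 811 in iPS (0), 2907 in ES cells (6986), 6873 for D4 against MEF controls (11152), 979 for D7 against D4 controls (3057), 7147 for D4 against MEF in the depleted arm (10999) and 1967 for D7 against D4 there (4356). The block called 1953 in MEF, 84 in iPS and 4608 for D7 against D4 controls. In iPS DESeq2 called 10 and the fit with no filter 5. Leaving out 1 library gave 266 to 1717 in MEF, 0 to 2 in iPS, 1669 to 2955 for D7 against D4 controls and 2441 to 4806 in the depleted arm. With library sizes alone, the share of calls that were higher was 71.5% at D7 (50.9%), 52.1% in MEF (63.4%), 62.2% for D4 against MEF controls (49.8%), 39.4% for D7 against D4 controls (58.0%) and 68.4% for D4 against MEF in the depleted arm (49.9%). It moved the median gene at D7 to 0.21 on the log2 scale, where Npy1r stood at -3.56, Gabra3 at -3.72, Kcnj8 at -2.64 and Ptchd1 at -3.04.

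Of the course values of the 6 genes, 412 kept their direction and side of the threshold. Npy1r turned sign between iPS and ES controls (0.58 without iPS shCtrl replicate 3, -1.42 without replicate 1) and from D4 to D7 in the depleted arm (-0.08 to 0.13 with a library left out, -0.01 in the fit of 28). Ptchd1 turned sign from D7 to iPS in the depleted arm, at -0.02 with library sizes alone, -0.11 with the replicate block and -0.22 to 0.33 with a library left out. Without D7 shUbc9 replicate 3, Htr7 stood at -2.66 at D7. The cause of each change was not tested. Peaks at the 6 genes and their window alternative were not run, for want of gene positions in build mm9. Genes with few reads, Nxph1 and Htr7 above all, set the limit of precision.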
